A study of Saccharomyces cerevisiae with 6 samples.

Results

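On home-made yeast open reading frame (ORF) membranes, 38 of 6144 spots bound genomic DNA (gDNA) on every membrane and gave no detectable run-on signal in any strain. A spot belonged to this set when its gDNA signal-to-noise ratio (S/N) was at least 2 on all 7 membranes and its run-on S/N stayed under 2 on all 18 run-on arrays. S/N is the spot's intensity above background, divided by the noise of its block, as deposited for each spot. The run-on and gDNA S/N values chose the set, so they are described below and not tested. A model across all spots is given at the end, but it uses the intensities behind those S/N values, so its counts for the set are a description too.

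The arrays measured nascent transcription in 6 strains of Saccharomyces cerevisiae that differ in cell volume, with 3 run-on arrays per strain. The strains were a deletion of CLN3 (strain BQS2006 in the array names), which encodes a G1 cyclin, and a deletion of WHI5 (JCY0704), which encodes a repressor of G1/S transcription. They stood beside the wild-type haploid BY4741, the wild-type diploid PY4993, the wild-type triploid PY4997 and the wild-type tetraploid PY4996. All cultures are labelled as exponentially growing in YPD, a rich glucose medium, except that 1 label of the cln3 deletion sample names wild-type cells and 0.6 M KCl. Its other labels name the deletion and were followed, and every value for that strain carries this conflict. The strain labels were not checked on the deleted genes, because the files identify a spot only by its place, given here as row and column of the block and position within it.

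In genomic run-on (GRO), the detergent sarkosyl permeabilises the cells and stops new initiation, so that engaged RNA polymerases extend the transcripts they had begun and incorporate radioactive UTP. The label on a spot follows the polymerase bound along that ORF at the time of sampling. Yeast growing in glucose is known to keep several gene classes nearly free of polymerase, among them the silent mating cassettes, meiotic genes repressed through Ume6 and glucose-repressed galactose genes. None of the 38 spots can be assigned to such a class here. Each array pooled a whole culture, so fewer transcribing cells and less transcription per cell cannot be told apart.

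Across the 18 arrays, 73.5% to 83.7% of spots had a run-on S/N of at least 2, and the median background-subtracted intensity ranged from 39.0 to 166.4 (photostimulated luminescence per area). No spot can be compared with a different spot as a transcription rate, because ORF length is not known for a spot. Whether a strain's 3 arrays came from separate cultures is not in the labels, so the spread behind each p-value may be technical, and the number of arrays limits the precision.

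The 38 spots made up 1.84% of the 2064 spots whose gDNA passed on all 7 membranes. Far more spots lacked run-on signal where gDNA was under its threshold too. Of the 702 spots with a gDNA S/N of at least 2 on no membrane, 364 had a run-on S/N under 2 on all 18 arrays (51.9%). These 364 are called blank spots below, and the same run-on threshold chose them. The rest of the 702 reached a run-on S/N of 2 on some array, so a gDNA S/N under 2 is not read as absence of DNA. The share without run-on signal was 2.56% (39 of 1524) for spots with gDNA on 6 membranes. At the other end, 1691 of the 2064 spots with gDNA were detected on all 18 arrays.

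The 38 spots ranged from weak to very bright in gDNA, and 7 had a gDNA S/N of at least 20 on every membrane. The lowest gDNA S/N of a spot over its 7 membranes ranged from 2.09 to 58.2 over the set, with a median of 4.25. Among spots with a gDNA S/N of at least 20 on every membrane, 7 of 57 had no run-on signal (12.3%), against 31 of 2007 (1.54%) for those between 2 and 20 at their lowest. By place, the 7 were 6 of the 15 such bright spots at positions 15 and 16 of the blocks and 1 of the 42 at positions 1 to 14. The gDNA intensity of the 7 lay between the 97.9th and 99.7th percentile of the membrane, while that of the other 31 ranged from the 26.7th to the 99.4th, so bright gDNA was not limited to the 7. Their run-on intensity, taken as a median over the arrays, was 3.06% to 41.9% of the array median (median 11.98%), against 0% to 55.4% (median 8.25%) for the other 31.

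**Figure D1:**
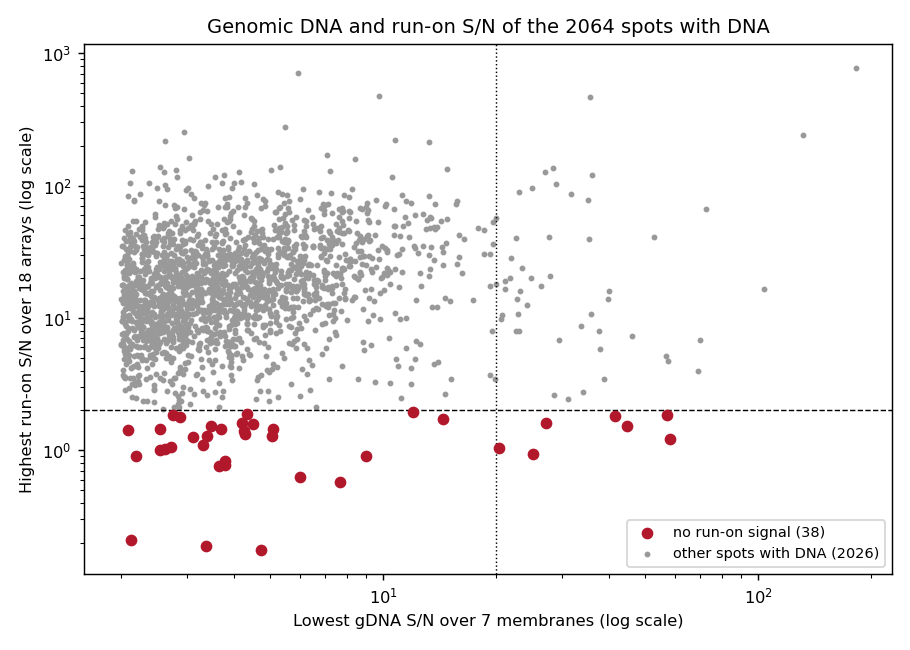
Each point is 1 of the 2064 spots with gDNA on all 7 membranes. The horizontal axis is its lowest gDNA S/N over the membranes and the vertical axis its highest run-on S/N over the 18 arrays, both on log scales. The 38 members (red) lie under the dashed line at an S/N of 2, and 7 of them lie to the right of the dotted line at a gDNA S/N of 20.

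The spot in row 9, column 1, position 7 had the highest gDNA of the set, by the lowest and by the median S/N over the membranes. Its gDNA S/N was 58.2, 95.8, 101.4, 133.8, 112.9, 79.6 and 85.7 on membranes 12 to 18. Its run-on S/N was 0.821, 0.646 and 0.318 on the cln3 deletion arrays and 0.617, 1.00 and 0.208 on the whi5 deletion arrays. The haploid arrays gave 1.01, 0.423 and 0.415, the diploid arrays 1.22, 0.442 and 0.415, the triploid arrays 0.460, 0.256 and 0.253 and the tetraploid arrays 0.481, 0.450 and 0.290. All strains overlapped with the haploid at this spot. The block holding it had the highest noise of any block with a member, 6.32 times the array median. Measured against the median block noise of the array, the spot would have reached 2 on 13 of the 18 arrays (highest 7.81). Its lack of run-on signal therefore holds only against the noise of its own block.

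Row 10, column 10, position 16 came next by the lowest gDNA S/N, with 57.1 to 94.1 over the membranes, although not by the median. Its run-on S/N reached 1.85 on diploid replicate 1, where it came close to detection, but was 0.344 and 0.378 on the other diploid arrays. The cln3 deletion arrays gave 0.837, 0.478 and 0.400, the whi5 deletion arrays 1.15, 0.705 and 0.387, the haploid arrays 1.01, 1.03 and 0.659, the triploid arrays 0.914, 0.342 and 0.368 and the tetraploid arrays 1.32, 0.430 and 0.149. The diploid range included the whole haploid range.

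Residual run-on signal was low but stood above that of the blank spots. The median S/N over the 38 spots was between 0.354 and 0.828 on an array (median array 0.486), against 0.0940 to 0.384 (median array 0.201) for the 364 blank spots. It was the higher of the 2 on 18 of 18 arrays, and so within every run-on number and every membrane. The raw density of the 38 spots was 1.21 to 1.90 times the local background, against 1.06 to 1.40 times for the blank spots and 4.65 to 13.3 times for the 1691 spots detected everywhere. As a share of the median intensity of all spots, the 38 spots gave 7.04% to 19.9% per array (median array 9.83%) and the blank spots 1.98% to 7.26% (median array 4.24%).

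**Figure D2:**
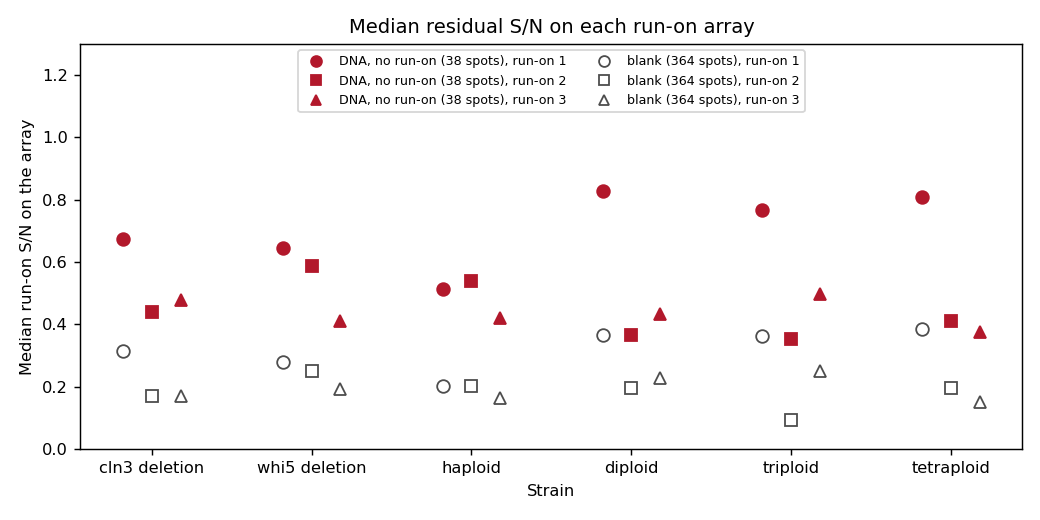
Median run-on S/N on each of the 18 arrays, by strain, for the 38 spots with DNA and no run-on signal (filled) and the 364 blank spots (open). Marker shape gives the run-on number. Filled markers lie above the open marker of the same array on all 18 arrays, and the highest values belong to run-on 1 arrays.

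Of the 684 values that the 38 spots gave on 18 arrays, 39 were at 0 (5.70%), 119 were at least 1 (17.4%) and 23 were at least 1.5 (3.36%). The blank spots had 28.5% of their 6552 values at 0, 9.43% at 1 or more and 1.94% at 1.5 or more. Residual signal was positive on all 18 arrays for 30 of the 38 spots, and 33 of the 39 zeros belonged to 4 spots. The highest S/N of a spot ranged from 0.176 to 1.94 over the set (median 1.28). It stayed under 1 for 12 spots and reached 1.5 for 12.

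The order of the 38 spots by residual S/N was alike between arrays. Spearman's rho across the 38 spots had a median of 0.74 over the 153 pairs of arrays (0.45 to 0.93), with 0.76 for pairs of the same strain and 0.73 for pairs of different strains. Pairs on the same membrane had a median of 0.82. For the 364 blank spots the median was 0.85. These are descriptions across spots, which share blocks, local background and membrane.

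The 3 spots with the lowest maximum S/N had little residual signal on any array. Row 14, column 15, position 9 was at 0 on 9 arrays and reached no more than 0.176, on whi5 deletion replicate 1. Row 14, column 16, position 9, at the same position of the adjoining block, was at 0 on 10 arrays and reached 0.190, on triploid replicate 1. Row 7, column 23, position 3 was at 0 on 5 arrays and reached 0.211, on triploid replicate 2. Their gDNA S/N was 4.73 to 20.1, 3.37 to 13.0 and 2.12 to 3.06 in the same order. Set against the median of 4.25 for the lowest gDNA S/N of a spot, the first lay above it and the others below.

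Near detection, taken as an S/N of 1.5 to under 2, occurred on 23 of the 684 values and in 12 of the 38 spots. Of these 12, 5 came near on a single array, 7 on at least 2 arrays, and the most for any spot was 6 arrays. By strain, the spots near detection on at least 1 array numbered 2 (cln3 deletion), 3 (whi5 deletion), 4 (haploid), 6 (diploid), 4 (triploid) and 0 (tetraploid). On an array, 30 to 60 of the 2064 spots with gDNA lay in this range (1.45% to 2.91%), and 0 to 4 of those belonged to the set. Near detection on at least 2 of the 3 arrays was found for 1 spot in the cln3 deletion and 2 in the diploid, and for none in the other 4 strains. On all 3 arrays it was found for 1 spot, in the cln3 deletion. Leaving out haploid replicate 1, whi5 deletion replicate 1, triploid replicate 3 or cln3 deletion replicate 1 brought the count of that strain to 0, 1, 1 and 1.

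**Figure D3:**
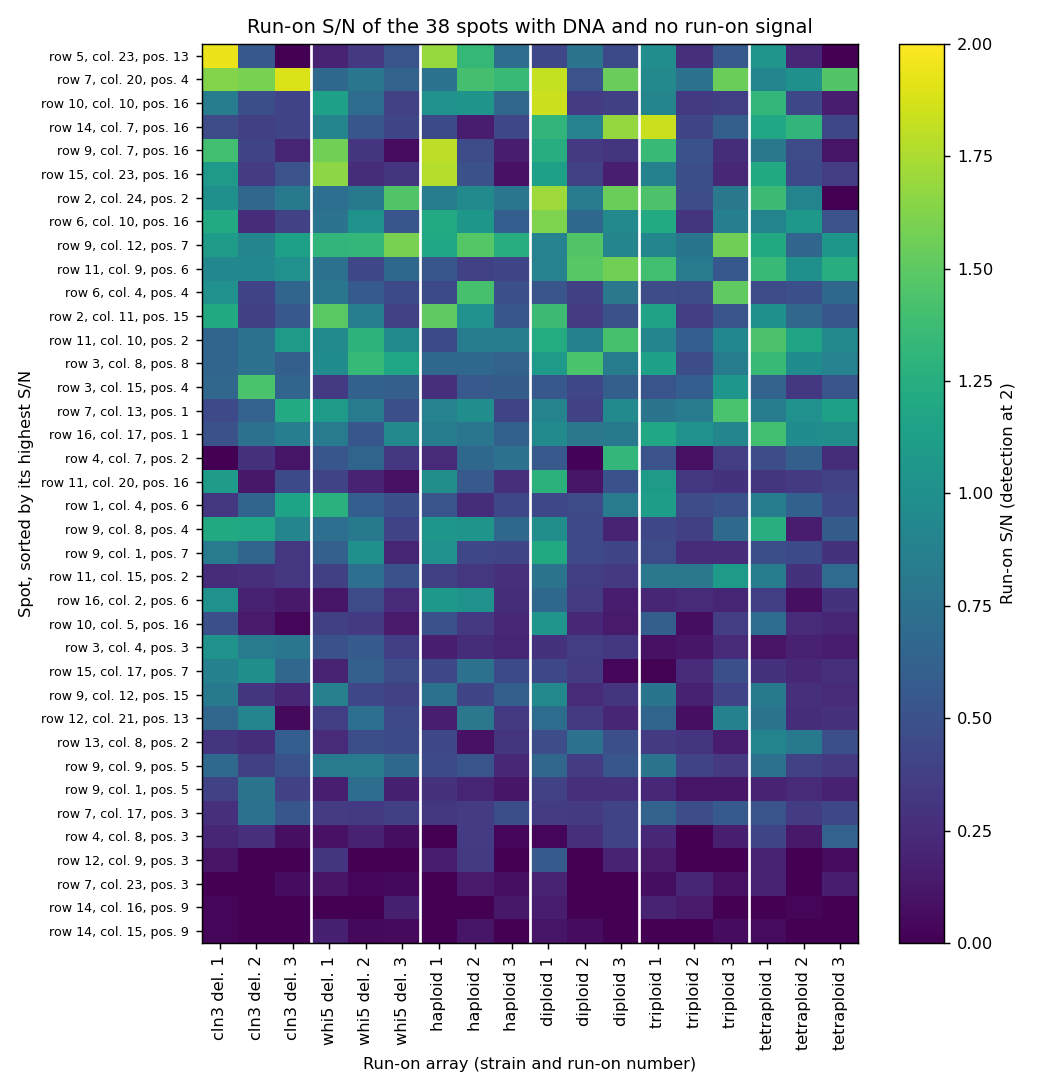
Run-on S/N of each of the 38 spots (rows, sorted by their highest value) on each of the 18 arrays (columns, grouped by strain, 1 to 3 being the run-on number). Colour runs from 0 to the detection threshold of 2. Row 7, column 20, position 4 is bright on all 3 cln3 deletion arrays, and the bottom 3 rows stay dark on every array.

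The spot that came nearest to detection over a whole strain was row 7, column 20, position 4, in the cln3 deletion. Its S/N there was 1.63, 1.60 and 1.89, with a mean of 1.71 ± 0.16 (SD, n = 3). The whi5 deletion gave 0.670, 0.783 and 0.635, the haploid 0.761, 1.41 and 1.35, the diploid 1.82, 0.508 and 1.54, the triploid 0.939, 0.749 and 1.55 and the tetraploid 0.921, 1.01 and 1.47. The cln3 deletion arrays all lay above the 3 haploid arrays, but the diploid reached the same level on replicate 1. Its gDNA S/N was 4.33 to 8.27 over the membranes.

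The highest single value of the set, 1.94, belonged to row 5, column 23, position 13 on cln3 deletion replicate 1. The other cln3 deletion arrays gave 0.547 and 0 at this spot. The whi5 deletion gave 0.189, 0.334 and 0.522, the haploid 1.69, 1.34 and 0.722, the diploid 0.427, 0.772 and 0.450, the triploid 0.984, 0.270 and 0.558, and the tetraploid 1.04, 0.225 and 0. The whi5 deletion was below the haploid on all arrays here, while the cln3 deletion spanned the ranges of the other 5 strains.

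Row 14, column 7, position 16 came near detection on triploid replicate 1 (1.84) and diploid replicate 3 (1.68). Its values were 1.32 and 0.883 on the other diploid arrays, 0.420 and 0.604 on the other triploid arrays, and 1.19, 1.32 and 0.426 in the tetraploid. The cln3 deletion gave 0.467, 0.381 and 0.399, the whi5 deletion 0.913, 0.535 and 0.416 and the haploid 0.447, 0.160 and 0.428. In S/N the diploid arrays all exceeded the haploid arrays, and the triploid and tetraploid arrays overlapped them. Its gDNA S/N ranged from 2.75 to 12.1 between membranes. It was 4.18, 2.75 and 4.55 on membranes 12 to 14 of the haploid arrays. On membranes 16 to 18 of the diploid arrays it was 12.1, 6.24 and 9.87. Divided by gDNA of the same membrane and scaled as in the model below, the log2 means overlapped. They were -2.79 ± 0.21 in the diploid and -2.96 ± 0.66 in the haploid (SD, n = 3 each).

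At row 9, column 7, position 16 the run-on number moved with the value in every strain. Its run-on 1 array gave 1.40 for the cln3 deletion, 1.57 for the whi5 deletion, 1.80 for the haploid, 1.25 for the diploid, 1.35 for the triploid and 0.803 for the tetraploid. The 12 arrays of run-on 2 and 3 lay between 0.0610 and 0.501, under all 6 of these. Its gDNA S/N was 41.6 to 77.7.

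Across the set, 23 of the 38 spots had their highest S/N on a run-on 1 array, 7 on a run-on 2 array and 8 on a run-on 3 array. Median S/N of the 38 spots was 0.513 to 0.828 on the 6 run-on 1 arrays, 0.354 to 0.586 on the run-on 2 arrays and 0.374 to 0.496 on the run-on 3 arrays. The blank spots moved the same way, with 0.202 to 0.384, 0.0940 to 0.251 and 0.149 to 0.250. Near-detection values numbered 13, 1 and 9 in the same order. Diploid replicate 1, a run-on 1 array on membrane 16, alone held the highest value of 8 spots. The part of run-on number in the counts by strain was not tested.

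Strain averages of the residual signal did not separate. The array median over the 38 spots averaged 0.530 ± 0.126 (cln3 deletion), 0.547 ± 0.121 (whi5 deletion), 0.490 ± 0.0625 (haploid), 0.542 ± 0.250 (diploid), 0.539 ± 0.209 (triploid) and 0.531 ± 0.240 (tetraploid), each with its SD over n = 3 arrays. Any pair of these averages differed by less than 1 SD. The cln3 deletion had the highest strain mean for 7 spots, the whi5 deletion for 5, the haploid for 7, the diploid for 9, the triploid for 6 and the tetraploid for 4.

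The highest strain mean of any spot in the whi5 deletion, the haploid and the triploid belonged to row 9, column 12, position 7. Its S/N was 1.10, 0.908 and 1.14 in the cln3 deletion and 1.32, 1.33 and 1.60 in the whi5 deletion. The haploid gave 1.20, 1.47 and 1.25, the diploid 0.889, 1.46 and 0.908, the triploid 0.919, 0.780 and 1.57 and the tetraploid 1.22, 0.652 and 1.06. The means were 1.41 ± 0.16, 1.31 ± 0.15 and 1.09 ± 0.42 in whi5 deletion, haploid and triploid (SD, n = 3 each), and these ranges overlap. This spot was the brightest of the set by intensity, at 55.4% of the array median.

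Row 2, column 24, position 2 had the highest mean in the diploid, 1.36 ± 0.47 (SD, n = 3), from 1.71, 0.834 and 1.55. The cln3 deletion gave 1.00, 0.660 and 0.812, the whi5 deletion 0.730, 0.810 and 1.45, the haploid 0.849, 0.955 and 0.784, the triploid 1.44, 0.476 and 0.798 and the tetraploid 1.37, 0.904 and 0. Its diploid arrays overlapped the haploid ones.

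Row 11, column 9, position 6 had the highest mean in the tetraploid, 1.20 ± 0.18 (SD, n = 3), from 1.35, 1.00 and 1.25. The cln3 deletion gave 0.936, 0.937 and 1.02, the whi5 deletion 0.753, 0.426 and 0.669, the haploid 0.538, 0.391 and 0.415, the diploid 0.888, 1.48 and 1.58 and the triploid 1.39, 0.831 and 0.550. In S/N every array of the other 5 strains except whi5 deletion replicate 2 lay above the haploid arrays. Its gDNA ranged from an S/N of 4.50 to 23.9 between membranes. Division by gDNA of the same membrane, scaled as in the model below, did not keep this order. The log2 means were then -3.13 ± 0.32 (haploid), -3.05 ± 0.16 (cln3 deletion) and -3.33 ± 0.26 (whi5 deletion). They were -3.15 ± 0.15 (diploid), -2.98 ± 0.24 (triploid) and -3.51 ± 0.67 (tetraploid), with SD and n = 3 each, and these spreads overlap.

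Just outside the rule on the run-on side lay row 6, column 5, position 11, row 12, column 5, position 9 and row 9, column 12, position 13. Each passed an S/N of 2 narrowly, at 2.06, 2.10 and 2.12, on diploid replicate 1 for the first pair and on diploid replicate 3 for the last. Just inside lay row 5, column 23, position 13 (1.94), row 7, column 20, position 4 (1.89) and row 10, column 10, position 16 (1.85). On the gDNA side, the 3 nearest spots without run-on signal had a lowest gDNA S/N of 1.91, 1.84 and 1.82. Altogether 14 spots with gDNA were detected on exactly 1 array, with 4 for the cln3 deletion, 0 for the whi5 deletion, 2 for the haploid, 6 for the diploid, 1 for the triploid and 1 for the tetraploid.

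An S/N under 2 did not mean the same intensity everywhere, because the noise in the deposited S/N is a single value per block and array. Of the 38 spots, 8 (21.1%) sat in blocks whose noise was over 2 times the array median, against 147 of the 2064 spots with gDNA (7.12%). These 8 had a run-on intensity of 20.6% to 55.4% of the array median, while the other 30 had 0% to 21.8%. The brightest spot in their blocks was 10.8 to 57.7 times the array median. Measured against the median block noise of the array, 12 of the 38 spots would have reached 2 on some array, 3 on 9 or more arrays and 1 on all 18. The last was row 9, column 12, position 7, whose intensity was higher than that of 30.9% of all spots on the median array. For these 12 the lack of run-on signal holds only against the noise of their own blocks.

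**Figure D4:**
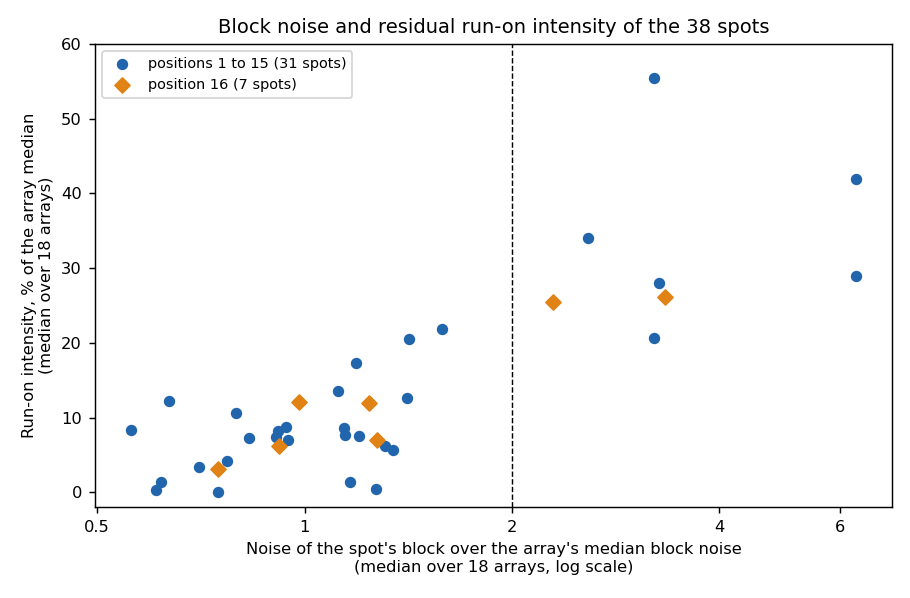
Run-on intensity of the 38 spots as a percentage of the array median (vertical axis) against the noise of the spot's block divided by the array's median block noise (horizontal axis, log scale), each as a median over 18 arrays. Diamonds are spots at position 16. The 8 spots right of the dashed line at 2 have intensities of 20.6% to 55.4%.

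The 38 spots lay in 36 of the 384 blocks, with 2 blocks holding 2 spots each. Position 16 of the blocks held 7 of them among 61 spots with gDNA (11.5%), against 31 of 2003 (1.55%) at the other 15 positions. Of the 7 spots with gDNA S/N of at least 20 on all membranes, 6 were at position 15 or 16. What the membranes carry at these positions was not used here. Block row 9 held 7 of the 38 spots among 205 with gDNA (3.41%), and block row 8 held none among 155. The share was 3.15% in row 11 (4 of 127) and 3.03% in row 14 (3 of 99). The outer ring of blocks held 6 of 319 spots with gDNA (1.88%) and the inner blocks 32 of 1745 (1.83%), which are nearly equal shares.

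**Figure D5:**
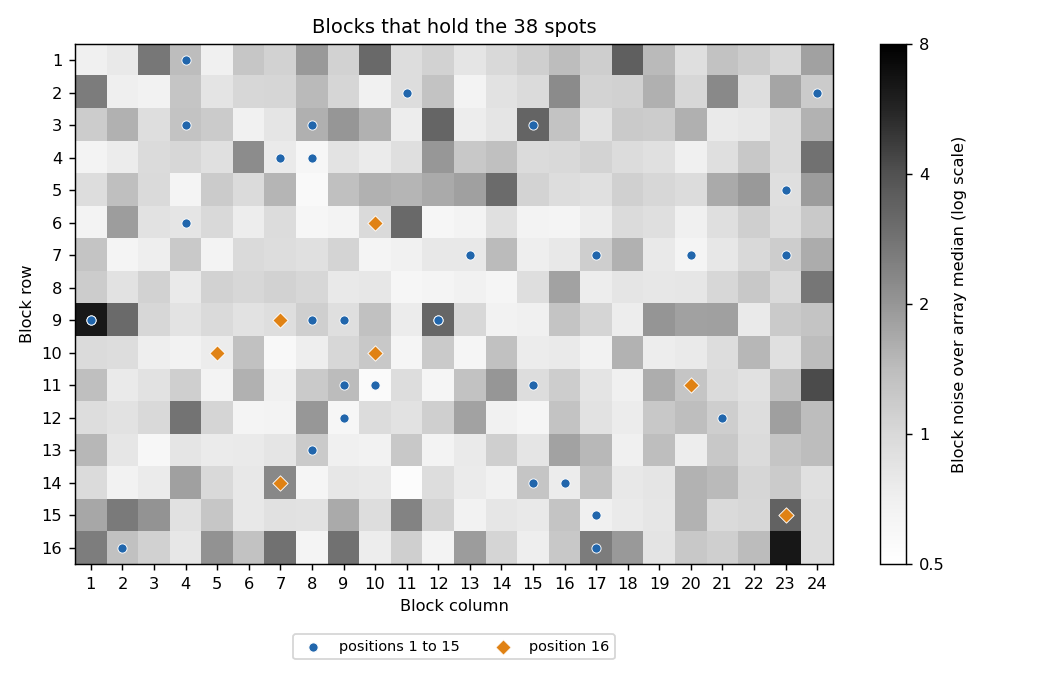
Blocks of the membrane (16 rows, 24 columns) shaded by block noise over the array median (log scale), with the blocks that hold the 38 spots marked by blue points for positions 1 to 15 and orange diamonds for position 16. The blocks at row 9, column 1 and row 9, column 12 hold 2 spots each under 1 marker, and row 8 holds none.

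Each strain was set against the haploid in a linear model (limma) of log2 run-on over gDNA intensity across all spots. Run-on and gDNA intensity are the numerators of the S/N values that chose the set and held it below detection in every strain, so nothing about change between strains is read from its counts. Of the 38 spots, 36 entered the model, with 20 of their values at 0 taken as missing. No spot of the set passed an adjusted p of 0.05 in any of the 5 comparisons of this model, which did not pair arrays by run-on number. Over all spots tested, the called share was 0.725% for the cln3 deletion, 0.0843% for the whi5 deletion, 0.742% for the diploid, 0.944% for the triploid and 1.16% for the tetraploid. At an unadjusted p under 0.05, the members numbered 10, 8, 3, 9 and 9 of 36 in that order, which is 27.8%, 22.2%, 8.33%, 25% and 25%, against 6.81%, 3.07%, 6.52%, 9.07% and 9.17% of all spots. The cln3 deletion and tetraploid counts include row 14, column 15, position 9, which had 1 value above 0 in each of these strains and in the haploid. That spot entered the model only through the whi5 deletion, where it was above 0 on all 3 arrays.

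With arrays of the same run-on number paired in a replicate block, the tetraploid comparison called 126 spots, or 2.12% of all tested. In that fit 2 of the 36 spots of the set were called, both lower than in the haploid. They were row 3, column 4, position 3 and row 10, column 10, position 16, named here after their values were seen. At row 3, column 4, position 3 the S/N was 0.105, 0.182 and 0.154 on the tetraploid arrays, against 0.169, 0.265 and 0.208 on the haploid arrays, in order of run-on number. The 2 ranges overlap, and the tetraploid array was lower than the haploid array within each of the 3 run-on numbers. The highest S/N at that spot, 1.03, 0.815 and 0.782, belonged to the cln3 deletion. At row 10, column 10, position 16 the tetraploid S/N was higher than the haploid S/N on run-on 1 (1.32 against 1.01). There it was lower on run-on 2 (0.430 against 1.03) and run-on 3 (0.149 against 0.659). All these values were below detection, so no fold is given.

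The median log2 difference of the 36 spots was -0.30 for the cln3 deletion, -0.45 for the whi5 deletion, -0.30 for the diploid, -0.35 for the triploid and -0.40 for the tetraploid, beside -0.01 to -0.02 for all spots. Between 24 and 28 of the 36 were below 0. The S/N averages of the 38 spots ran the other way, with the haploid lowest (0.490 against 0.530 to 0.547). So did density over background, at 1.38 in the haploid against 1.42 to 1.59 (means over 3 arrays). The intensities behind these values chose the set, so no shift between strains is read from the medians. The 5 comparisons share the 3 haploid arrays, which lay on membranes 12, 13 and 14. The diploid arrays lay on membranes 16, 17 and 18 and the whi5 deletion arrays on 15, 16 and 17. Neither strain shared a membrane with the haploid, so strain and membrane cannot be told apart directly in those comparisons. The cln3 deletion, triploid and tetraploid shared membranes with the haploid only in part. Of the 8 other ways of scaling, filtering or blocking, 6 also left all 5 medians below 0. These settings reuse the same intensities and the same haploid arrays, so they add no independent support for a direction. With density that was not background-subtracted the medians lay between -0.10 and 0.04, with the triploid above 0, and with quantile normalisation between -0.08 and 0.07, with all but the cln3 deletion above 0. Standard errors of these differences had a median of 0.39 for the 36 spots and 0.25 for all spots.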

How the data were processed

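Run-on arrays of 6 strains and gDNA hybridisations of 7 membranes were analysed. Per the file headers, the deposited density and background-subtracted columns are intensities per area from image quantification. The deposited S/N values are a score that equals the subtracted intensity divided by 1 noise value per block and array. The 18 gDNA files are copies of 7 hybridisations. The sources used here do not name the imaging program. Per the series' design text the authors later scaled by median absolute deviation (MAD), but the deposited intensities show no such scaling. Strain was taken from each title, and run-on number and membrane from the deposited array names.

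Spots were selected by S/N as described. The members and lists were chosen with earlier results of these data known, as was the near-detection range. Spots were named by this rule: the 5 highest single S/N values, the highest strain mean per strain, the 3 lowest maxima, the 2 highest gDNA minima, up to 2 called spots per direction, and 3 spots on each side of the threshold. Planned gene lists and strain markers were not used, because spots carry no gene names in these tables.

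Run-on intensity was divided by gDNA intensity of the same membrane, and log2 ratios were median-centred and brought to the same MAD (0.888 to 1.07 beforehand). Spots at 0 for gDNA on any membrane were left out, as were spots with no strain above 0 in all its 3 run-on arrays, which kept 5937. All 18 arrays entered 1 model of strain means (limma 3.58.1, R 4.3.3, lmFit and eBayes) with Benjamini-Hochberg adjustment over all spots tested, and the script was tested on simulated data. Arrays of the same run-on number shared deviations (r over 0.1 in every pair) in the whi5 deletion (0.45, 0.22 and 0.33), diploid (0.41, 0.16 and 0.29) and tetraploid (0.32, 0.18 and 0.10) comparisons, but not in those of the cln3 deletion and triploid. Alternatives were other thresholds, scalings, filters and blocks, and leaving out each array.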

Additional observations from a re-analysis of the deposited data

How the results depend on the processing

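The number of spots with DNA and no run-on signal was 79 at a run-on S/N under 3, 74 with the mean S/N of each strain under 2, and 126 with a median gDNA S/N of at least 2. It was 26 at a run-on S/N under 1.5, 29 at a gDNA S/N of at least 3, and 38 to 43 when 1 array was left out. With array-wide noise, an alternative chosen after seeing the data, it was 36, of which 26 were shared. The higher residual signal of the 38 spots over blank spots held on 18 of 18 arrays by S/N, by density over background and by percentage of the array median. Members near detection at an S/N of 1 to under 2 numbered 18 (cln3 deletion), 12 (whi5 deletion), 12 (haploid), 16 (diploid), 16 (triploid) and 15 (tetraploid). In that wider range, those found on at least 2 of the 3 arrays numbered 3, 2, 8, 6, 1 and 6. In the main range of 1.5 to under 2, those on at least 2 of the 3 arrays numbered 1, 0, 0, 2, 0 and 0. Leaving out 1 array of the strain, again in the main range, gave 1 to 2, 1 to 3, 0 to 4, 4 to 6, 1 to 4 and 0 to 0. Among 70 alternatives of the counts of members called, 65 gave 0. The other 5 gave 2 without MAD scaling, 1 with quantile normalisation and 2 with the replicate block in the tetraploid, 1 with the replicate block in the triploid (row 2, column 11, position 15, lower), and 1 without cln3 deletion replicate 1 in the cln3 deletion (row 6, column 10, position 16, lower). The called share of all spots tested in these 5 fits was 1.21%, 0.944%, 2.12%, 1.53% and 0.792% in that order. Run-on number was taken as pairing the arrays in the tetraploid but not in the triploid comparison. The paired fit changed the call of no other member, and with membrane as a fixed block no member was called. Row 16, column 17, position 1 was the spot called higher in the tetraploid without MAD scaling and with quantile normalisation. Counts when 1 array was left out were 0 to 1 in the cln3 deletion and 0 to 0 in the other 4 comparisons. The cause of these differences was not tested. An S/N under 2 limits what can be read from single members, and 3 arrays per strain limit the precision.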
